A study of Homo sapiens with 18 samples.

Results

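AP-1 is a family of dimeric transcription factors, and 8 of its genes were followed through 18 RNA-seq libraries of NCI-H1299 cells: the FOS-type genes FOS, FOSB, FOSL1 and FOSL2, the JUN-type genes JUN, JUNB and JUND, and ATF3. They were chosen by name with earlier results against the controls in these libraries known, among them the fold changes of FOS and FOSB. They are 8 of the 63677 genes in the count table. Their levels against the controls are therefore given below as a description without a test. Differences between both kinds of control were tested, since they are another contrast, although they draw on the same libraries. Differences among the 4 TBX groups follow from the changes against the controls, which were known when the family was chosen. The p-values of all 8 members in these pairs are therefore a description too.

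NCI-H1299 is a human lung cancer line, labelled as lung adenocarcinoma and grown with serum in low glucose DMEM, which the study's methods give as DMEM-F12. The cells received one of 4 plasmids by transient lipid transfection, so that not every cell carried one: Flag-tagged pORF with human TBX2 or TBX4, HA-tagged pCGN with human TBX3, or HA-tagged pCGN with mouse Tbx5. The controls were 3 libraries labelled EV, for empty vector, and 3 labelled Ctl, whose treatment the sources used here do not give, nor do they say which backbone the empty vector had. Each group held 3 libraries, named a, b and c. TBX2 and TBX4 shared one backbone and TBX3 and TBX5 the other, so plasmid and TBX cannot be told apart where these pairs differ. The label of TBX4 replicate c is at odds with itself, numbered like the other TBX4 libraries and yet named TBX5 at its end. It was placed by its number.

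FOS and JUN proteins pair through a leucine zipper and bind the AP-1 site in enhancers and promoters, JUN proteins also with each other, while FOS proteins need a JUN partner. Most of the family are immediate-early genes, switched on within minutes of growth factor, serum or stress signals through MAP kinases and the factors SRF, ELK1 and JUN itself. FOSL1, also called FRA-1, is instead held at a high level in many carcinoma lines with RAS pathway activity. ATF3 pairs with JUN proteins and is best known as a gene of the stress response, downstream of ATF4.

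RefSeq promoter windows were found for 7 of the 8 members and not for FOSL1. The 250 bases before the start site are printed in transcript direction for FOS, FOSB, JUN and ATF3, which had the largest fold changes against the controls, and for JUND, which lay below the controls in 3 TBX groups, because the sites through which this family answers its own products and CREB/ATF proteins lie there. Capitals mark 2 kinds of letters searched on both strands: TGACGT, the core of the cAMP response element (CRE), and TGACNTCA, which holds the full CRE and the JUN/ATF site. The windows lie on GRCh38.p14 at chr14:75278578-75278827 (plus strand) for FOS, chr19:45467746-45467995 (plus) for FOSB, chr1:58784048-58784297 (minus) for JUN, chr19:18281623-18281872 (minus) for JUND and chr1:212565157-212565406 (plus) for the first of the windows of ATF3.
FOS: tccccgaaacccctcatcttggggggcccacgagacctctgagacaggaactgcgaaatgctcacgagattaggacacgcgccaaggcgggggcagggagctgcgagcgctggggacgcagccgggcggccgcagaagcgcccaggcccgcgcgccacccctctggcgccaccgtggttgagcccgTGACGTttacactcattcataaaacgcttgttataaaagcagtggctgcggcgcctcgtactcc
FOSB: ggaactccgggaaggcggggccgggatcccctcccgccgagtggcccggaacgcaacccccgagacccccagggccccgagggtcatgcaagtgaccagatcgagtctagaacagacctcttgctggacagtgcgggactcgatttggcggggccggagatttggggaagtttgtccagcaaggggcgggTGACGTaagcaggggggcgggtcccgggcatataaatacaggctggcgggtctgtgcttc
JUN: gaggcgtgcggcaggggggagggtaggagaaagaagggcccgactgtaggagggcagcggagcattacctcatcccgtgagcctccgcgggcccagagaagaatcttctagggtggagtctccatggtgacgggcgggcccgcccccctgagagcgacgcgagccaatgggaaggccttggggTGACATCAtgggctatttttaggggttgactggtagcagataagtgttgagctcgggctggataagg
JUND: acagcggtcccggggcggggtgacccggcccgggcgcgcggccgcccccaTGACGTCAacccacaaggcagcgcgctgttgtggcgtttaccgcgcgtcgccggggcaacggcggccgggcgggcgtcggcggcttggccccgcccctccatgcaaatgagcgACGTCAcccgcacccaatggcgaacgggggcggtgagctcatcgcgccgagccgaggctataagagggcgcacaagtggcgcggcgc
ATF3: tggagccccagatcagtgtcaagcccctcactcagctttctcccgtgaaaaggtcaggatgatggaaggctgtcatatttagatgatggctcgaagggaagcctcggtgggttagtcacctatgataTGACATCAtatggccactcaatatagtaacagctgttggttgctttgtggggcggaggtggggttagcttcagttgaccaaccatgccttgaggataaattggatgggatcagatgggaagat

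The CRE core began 64 bases before the start in FOS, 60 in FOSB and 66 in FOSL2, and JUND held it at 200 and, on the other strand, at 87 bases. Of 35116 RefSeq windows of this length, 7.10% held TGACGT and 6.87% held TGACNTCA. The JUN/ATF letters TGACATCA stood 67 bases before the start of JUN and 123 before the start in the first ATF3 window. The second ATF3 window, which belongs to another start and is not printed, held neither these letters nor a CRE core. The match in ATF3 thus depends on which start is used, and which start these cells used was not tested. A TATA box, TATAAA, began 33 bases before the start of FOS, 30 before FOSB and 31 before JUNB. The same letters began 230 bases before the start in the second ATF3 window. Of all windows, 10.7% held them at any position. The AP-1 letters TGANTCA (6.57% of windows), the T-box letters GGTGTGA (2.76%) and a CArG box (1.16%), the site of SRF, were in none of the 8 member windows on either strand. These motifs were picked after the windows had been read, and a match is a string of letters and not a bound site. Bases farther upstream or after the start were not searched, so a motif missing here may lie there.

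The libraries held 7365221 to 11743179 counts. A single gene, ENSG00000266658, took 10.7% to 53.5% of them, and mitochondrial genes took 12.1% to 23.1%, with 22.1% to 23.1% in the TBX4 libraries. The part of either in the results was not tested. Levels are given as CPM, counts scaled to library size with TMM factors. A floor of 3 counts was 0.255 to 0.407 CPM before scaling, and floors cover counting error only. Each TBX gene was high in its own libraries: TBX2 at 4468 ± 368.4 CPM (SD, n = 3), TBX3 at 21905 ± 3874 CPM (n = 3), TBX4 at 7976 ± 483 CPM (n = 3), and TBX5, read on the human gene from a mouse plasmid, at 200.6 ± 62.4 CPM (n = 3). All 3 TBX4 libraries, replicate c among them, held 85197 to 109159 counts of TBX4 and at most 1 of TBX5. Of 6 epithelial markers, CDH1 and KRT19 stayed under 3 counts in every library and EPCAM at 3 counts or fewer, while KRT8 and KRT18 were detected in all, at 37.7 ± 2.87 and 70.2 ± 5.40 CPM in the controls (SD, n = 6). The epithelial list summed to 97.4 to 115.5 CPM in the controls and to 68.9 to 77.3 CPM with TBX2. With TBX3 it summed to 78.0 to 85.3 CPM, with TBX4 to 84.9 to 99.7 and with TBX5 to 102.3 to 127.1. KRT7 was instead higher with TBX2, at 2.38 ± 0.53 CPM (SD, n = 3) against 0.94 ± 0.48 in the controls (n = 6). The part of these markers in the results was not tested. All 4 mesenchymal markers, such as VIM, were detected, and lung lineage, leukocyte, fibroblast and endothelial lists summed to at most 1.62 CPM each. Every pair of replicates differed by more than sampling noise, but the labels do not say that they came from separate cultures, so p-values measure only the spread between these samples, which may be technical.

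FOSL1 was by far the most abundant member when levels were set per kilobase of exon. It held 83.5% of the family's summed CPM per kilobase in the 6 controls (82.3% to 85.1%), next to 5.42% for JUND, 4.74% for JUNB, 2.83% for JUN, 2.32% for FOSL2, 0.561% for ATF3, 0.516% for FOS and 0.0914% for FOSB. The genes that differed most between groups were thus the scarcest. All 8 members passed the filter of more than 5 counts in at least 10 of 18 libraries, FOSB with only 4 to 6 counts in the Ctl libraries.

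FOS (ENSG00000170345, GRCh37 chr14:75745529-75748933, plus strand) is the founding member, a short-lived product of growth factor and stress signals. Its level was 1.27, 2.40 and 2.08 CPM in Ctl a, b and c and 3.08, 4.62 and 2.81 CPM in EV. With TBX2 it was 6.78, 7.85 and 6.49 CPM, and with TBX3 7.86, 11.6 and 9.49 CPM. With TBX4 it was 6.25, 4.98 and 5.46 CPM, and with TBX5 5.10, 9.92 and 5.02 CPM. All 12 TBX libraries lay above all 6 controls, and TBX5 replicate b stood apart from the other two of its group. In bulk RNA, more FOS transcript per cell and a larger share of cells with the transcript cannot be told apart. Against the pooled controls the log2 fold change was 1.40 ± 0.22 (SE) in TBX2, 1.83 ± 0.20 in TBX3, 1.04 ± 0.20 in TBX4 and 1.25 ± 0.27 in TBX5. These 4 comparisons share their 6 controls. The counts behind them were small, 13 to 44 in the controls and 27 to 135 in the TBX libraries.

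FOSB (ENSG00000125740, chr19:45971253-45978437, plus strand), a partner of JUN proteins with a long-lived truncated splice form that gene counts do not separate from the full form, had the widest range of the family. It was 0.588, 0.444 and 0.397 CPM in Ctl and 0.914, 1.61 and 1.08 CPM in EV. TBX2 libraries held 10.2, 9.76 and 9.09 CPM and TBX4 libraries 7.93, 9.19 and 8.70 CPM. TBX3 libraries held 3.15, 3.62 and 4.71 CPM, and TBX5 libraries 4.55, 7.54 and 7.07 CPM. Again no TBX library overlapped the controls. The log2 fold change against the controls was 3.51 ± 0.22 in TBX2, 2.22 ± 0.28 in TBX3, 3.33 ± 0.21 in TBX4 and 2.84 ± 0.29 in TBX5, which is 11.4-fold, 4.67-fold, 10.1-fold and 7.18-fold. All EV libraries lay above all Ctl libraries, a difference that did not pass the test below, and the size depended on the control. With TBX2 the log2 fold change was 3.03 against EV alone and 4.32 against Ctl alone, and with TBX3 it was 1.74 and 3.03.

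FOSL1 (ENSG00000175592, chr11:65659520-65668044, minus strand) went the other way from FOS and FOSB. It was at 226.9, 230.2 and 270.2 CPM in Ctl and 259.7, 310.1 and 232.8 CPM in EV. TBX2 libraries were at 213.5, 197.9 and 211.7 CPM, and TBX3 libraries at 240.9, 243.8 and 167.9 CPM. TBX4 libraries were at 204.9, 230.6 and 205.2 CPM, and TBX5 libraries at 172.4, 235.1 and 231.7 CPM. Only the TBX2 libraries lay below every control, while each of the other groups had at least 1 library inside the control range. The log2 fold change was -0.30 ± 0.08 in TBX2, -0.24 ± 0.10 in TBX3, -0.26 ± 0.08 in TBX4 and -0.27 ± 0.10 in TBX5. It moved to -0.08 with TBX3 without TBX3 replicate c and to -0.12 with TBX5 without TBX5 replicate a. Without TBX4 replicate c it was -0.23 with TBX4. Its call at the threshold used below was lost with TBX4 without TBX4 replicate a or c, and with TBX5 without Ctl replicate c, EV replicate a or b, or TBX5 replicate a or c. The annotation lists 1 pseudogene of FOSL1, whose reads cannot be separated with certainty. FOSL2 (ENSG00000075426, chr2:28615315-28640184, plus strand), known as FRA-2, was nearly flat, at 23.5 to 28.2 CPM in the 6 controls with a median of 26.8 and at 21.8 to 32.0 CPM in the 12 TBX libraries, with log2 fold changes of 0.11 in TBX2, 0.19 in TBX3, -0.12 in TBX4 and -0.19 in TBX5 libraries. With TBX3 its 3 libraries, from 28.7 to 31.5 CPM, were above all controls.

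**Figure D1:**
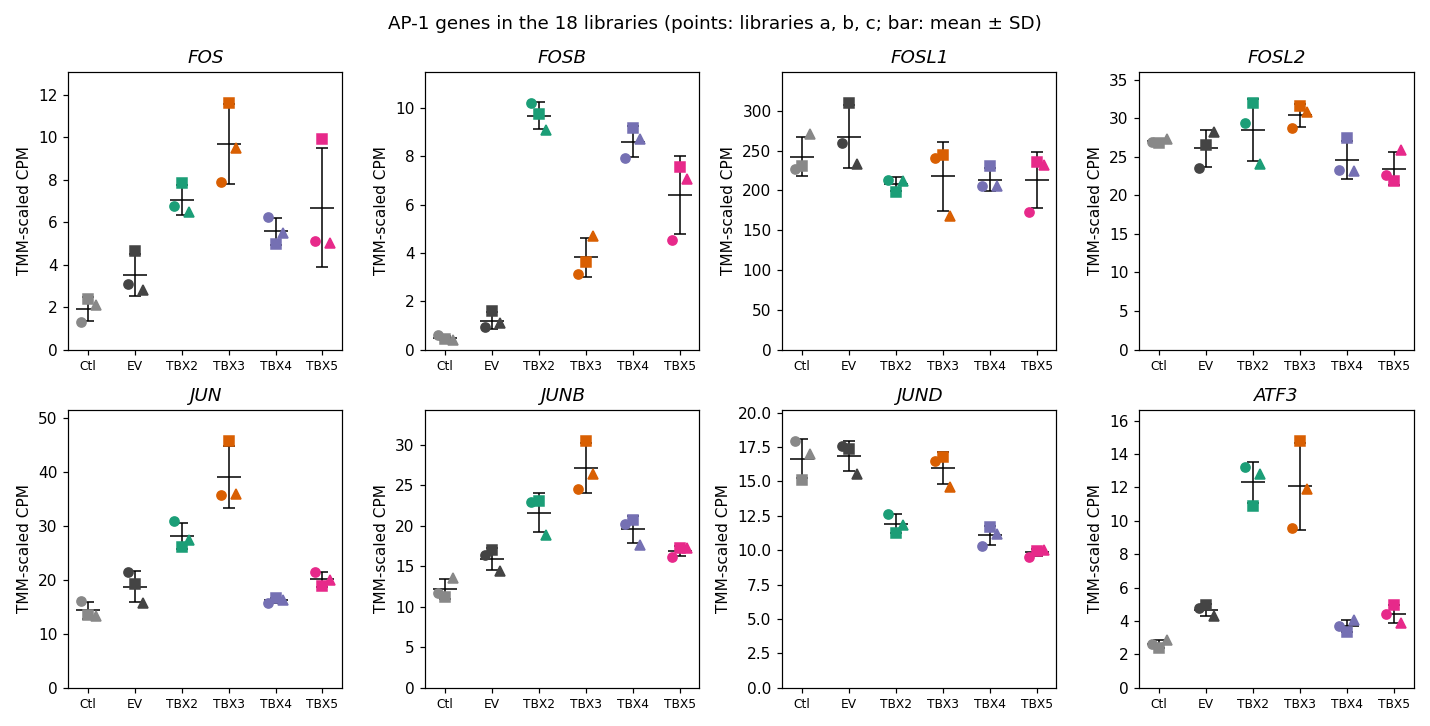
TMM-scaled CPM (y axis, linear, from 0) of each of the 8 AP-1 genes in the 6 groups (x axis), with circles, squares and triangles for libraries a, b and c and bars for mean ± SD (n = 3). FOS and FOSB are above both kinds of control in all 4 TBX groups, ATF3 and JUN stand highest with TBX2 and TBX3, and JUND is lower with TBX2, TBX4 and TBX5.

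JUN (ENSG00000177606, chr1:59242517-59249720, minus strand), the main partner of FOS and itself a target of JNK signalling, was ordered differently by group. It was 16.1, 13.5 and 13.4 CPM in Ctl and 21.4, 19.2 and 15.7 CPM in EV. TBX2 libraries reached 30.9, 26.2 and 27.4 CPM and TBX3 libraries 35.6, 45.7 and 35.9 CPM. TBX4 libraries, at 15.7, 16.6 and 16.3 CPM, lay inside the range of the controls, and of the TBX5 libraries, at 21.5, 18.9 and 19.9 CPM, 1 of 3 lay just above it. Relative to the controls the log2 fold change of JUN was 0.78 ± 0.11 in TBX2, 1.24 ± 0.11 in TBX3, -0.02 ± 0.11 in TBX4 and 0.30 ± 0.13 in TBX5 libraries. With TBX4 it was -0.19 against EV alone and 0.17 against Ctl alone. With TBX5 it was 0.14 and 0.50, and of these only that against Ctl was called at the threshold used below.

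JUNB (ENSG00000171223, chr19:12902300-12904129, plus strand), a JUN-type protein that can oppose JUN, was higher than the controls in 3 groups without overlap. It was 11.8, 11.2 and 13.6 CPM in Ctl and 16.5, 17.0 and 14.4 CPM in EV. TBX2 libraries held 23.0, 23.0 and 18.8 CPM and TBX3 libraries 24.5, 30.5 and 26.4 CPM. TBX4 libraries held 20.3, 20.7 and 17.7 CPM and TBX5 libraries 16.2, 17.3 and 17.3 CPM, the last group overlapping EV. The log2 fold change was 0.64 ± 0.11, 0.95 ± 0.11, 0.48 ± 0.10 and 0.26 ± 0.12 in the same order. With TBX5 it was 0.09 against EV alone and 0.47 against Ctl alone, and only that against Ctl was called at the threshold used below. Of the exon bases of JUNB, 14.2% are also exon of HOOK2 on the other strand, and reads there cannot be told apart since the stated default counting ignores strand.

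JUND (ENSG00000130522, chr19:18390504-18392432, minus strand) is the steadily expressed JUN gene of most cells, and here it was lower than the controls in 3 TBX groups. It was 17.9, 15.1 and 17.0 CPM in Ctl and 17.6, 17.4 and 15.6 CPM in EV, so that both controls were alike within their spread. TBX2 libraries were at 12.6, 11.3 and 11.9 CPM, TBX4 libraries at 10.3, 11.7 and 11.2 CPM and TBX5 libraries at 9.54, 9.92 and 10.05 CPM. All 9 were below all 6 controls. TBX3 libraries, at 16.5, 16.8 and 14.6 CPM, overlapped the controls. The log2 fold change was -0.49 ± 0.10 in TBX2, -0.08 ± 0.09 in TBX3, -0.59 ± 0.09 in TBX4 and -0.77 ± 0.11 in TBX5.

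ATF3 (ENSG00000162772, chr1:212738676-212794119, plus strand) separated TBX2 and TBX3 from everything else. It was 2.65, 2.40 and 2.88 CPM in Ctl and 4.80, 4.94 and 4.28 CPM in EV. TBX2 libraries held 13.2, 10.9 and 12.8 CPM and TBX3 libraries 9.57, 14.8 and 11.9 CPM. TBX4 libraries held 3.68, 3.35 and 4.07 CPM and TBX5 libraries 4.44, 4.96 and 3.91 CPM, the former between Ctl and EV and the latter about level with EV. The log2 fold change was 1.74 ± 0.17 with TBX2 and 1.71 ± 0.17 with TBX3, against 0.01 ± 0.20 with TBX4 and 0.28 ± 0.23 with TBX5. For TBX4 the sign turned with the control, from -0.33 against EV alone to 0.48 against Ctl alone, and for TBX5 from -0.06 to 0.75.

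**Figure D2:**
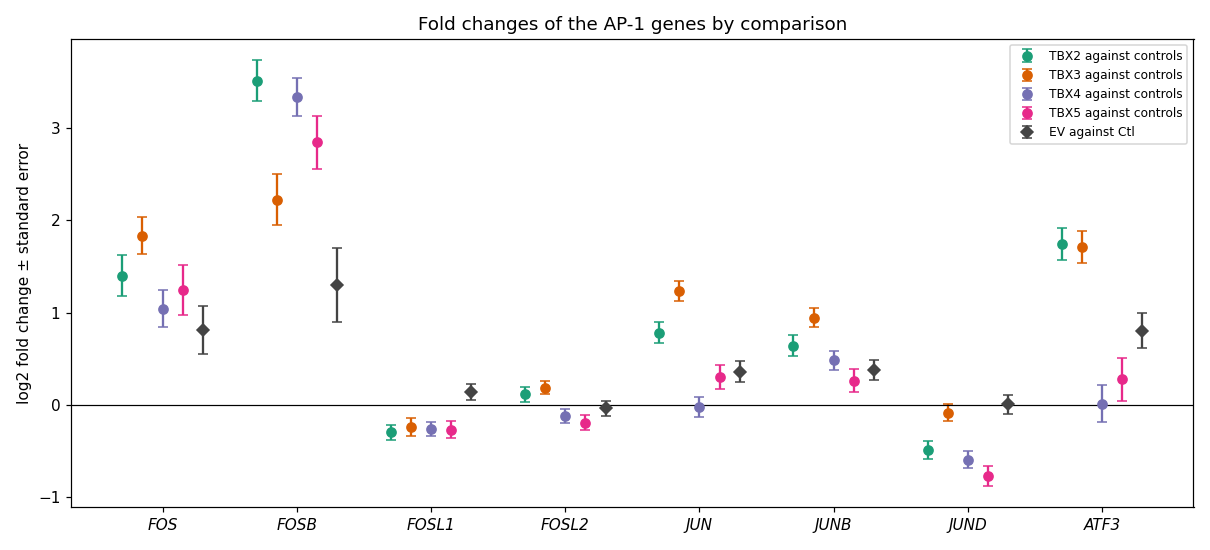
Log2 fold change with its standard error (y axis) of each gene (x axis), with circles for the 4 TBX groups against the 6 pooled controls and diamonds for EV against Ctl. FOSB reaches 3.51 with TBX2, ATF3 reaches 1.74 with TBX2 and 1.71 with TBX3 and is at 0.01 with TBX4, and JUND is at -0.77 with TBX5.

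Counted by edgeR's quasi-likelihood test at an adjusted p under 0.1, 5 members were higher and 2 lower with TBX2, where 17.0% and 15.6% of the 15576 tested genes were higher and lower. With TBX3, 6 were higher, where 8.47% of all genes were, and no member was lower, where 6.40% were. The sixth of these, FOSL2, was no longer counted with DESeq2, with either control alone, or when any library but EV replicate c was left out. With TBX4, 3 were higher and 2 lower, beside 6.97% and 6.07% of all genes. With TBX5, 2 were higher and 2 lower, beside 6.55% and 6.12%. Groups of TBX libraries did not overlap the 6 controls for 7 members in TBX2, 6 in TBX3, 4 in TBX4 and 3 in TBX5, against 24.5%, 14.5%, 12.6% and 14.0% of all genes. As the family was chosen on this contrast, these counts describe it and test nothing. Without TBX4 replicate c, the log2 fold changes with TBX4 were 1.06 for FOS, 3.33 for FOSB, 0.55 for JUNB and -0.60 for JUND, and 4 members instead of 5 were counted.

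The make-up of the family differed between groups while its total overlapped. The summed CPM per kilobase was 162 ± 19.3 in the controls (SD, n = 6), and in the TBX groups (SD, n = 3) 147 ± 5.11 for TBX2, 160.1 ± 25.0 for TBX3, 142 ± 8.95 for TBX4 and 140.4 ± 19.7 for TBX5. The share of FOSL1 ran from 73.9% to 76.6% in TBX2 libraries, 67.4% to 75.6% in TBX3, 79.3% to 80.4% in TBX4 and 77.6% to 81.6% in TBX5, all below the controls. The sum of FOS, FOSB, JUN, JUNB and ATF3, grouped as the rapidly inducible genes with their values known, was 11.3 to 12.6 CPM per kilobase in Ctl, 14.4 to 17.5 in EV, 24.7 to 28.3 with TBX2, 28.7 to 37.3 with TBX3, 18.5 to 19.9 with TBX4 and 18.3 to 20.3 with TBX5. No TBX library fell into the range of the controls on this sum. The ratio of FOS-type to JUN-type CPM per kilobase, nearly all of it FOSL1 over the JUN genes, was 5.92 to 7.42 in the controls, 4.39 to 4.97 with TBX2, 3.04 to 4.24 with TBX3, 5.55 to 5.89 with TBX4 and 4.91 to 6.68 with TBX5, and only the TBX5 libraries overlapped the controls.

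**Figure D3:**
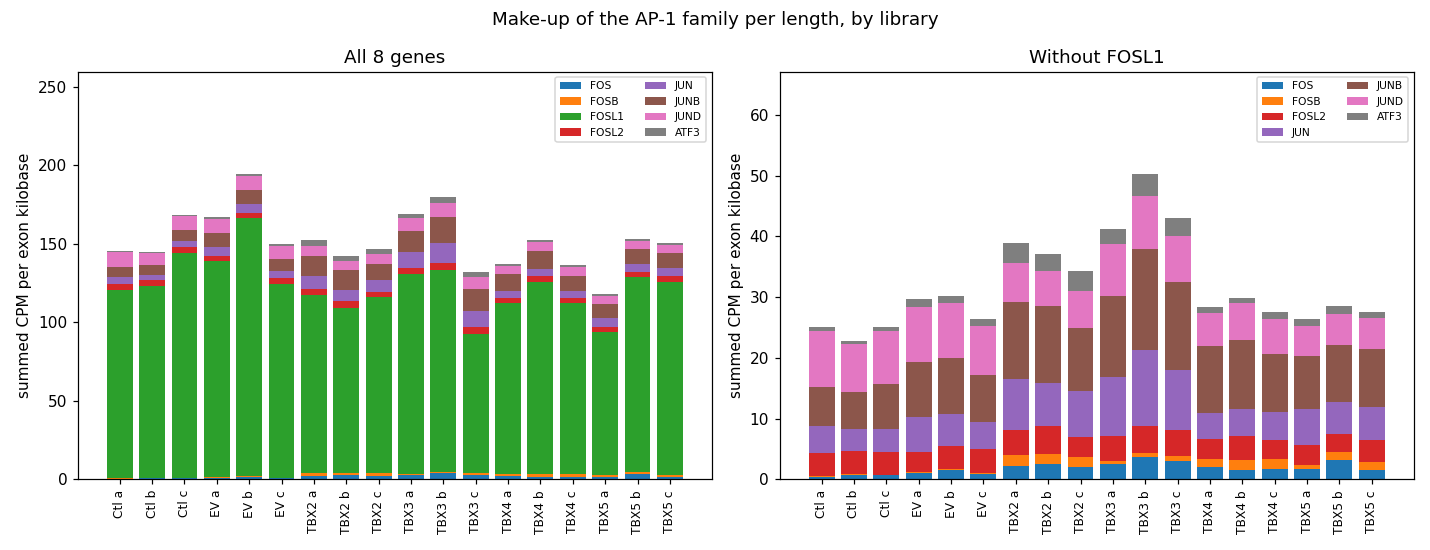
Stacked CPM per exon kilobase (y axis, from 0) of the 8 genes (left) and of the 7 without FOSL1 (right) in each of the 18 libraries (x axis). FOSL1 fills 83.5% of the control bars on average, and on the right the TBX2 and TBX3 bars are the tallest, with more JUN, JUNB and ATF3.

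The tested question was whether cells given an empty vector differed from Ctl cells. For FOS, FOSB, JUNB and ATF3, all 3 EV libraries lay above all 3 Ctl libraries, that is for 4 of 8 members, where 7.68% of all genes did so. Only ATF3 passed the threshold, 0.81 ± 0.19 on the log2 scale (edgeR adjusted p = 0.0908), beside 0.385% of all genes called in either direction. The difference was 1.30 ± 0.40 for FOSB (edgeR adjusted p = 0.26), 0.81 ± 0.26 for FOS (0.282), 0.37 ± 0.11 for JUNB (0.219) and 0.36 ± 0.11 for JUN (0.279). FOSL1 at 0.14 ± 0.08, FOSL2 at -0.03 ± 0.08 and JUND at 0.01 ± 0.10 were nearer to 0. The ATF3 call was lost with DESeq2 (adjusted p = 0.591) and when any library but Ctl replicate c was left out, with an adjusted p of up to 0.486 without Ctl replicate b. Without Ctl replicate c, ATF3 (edgeR adjusted p = 0.0701) and JUNB (0.074) both passed.

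How the 4 TBX groups differed from each other was read for the 6 pairs from 1 edgeR fit of all 18 libraries. The counts and adjusted p-values of the members in these pairs describe and do not test. Between TBX2 and TBX3, 4 members differed, where 15.5% of all genes did. Between TBX2 and TBX4 2 differed (12.3% of all genes), between TBX2 and TBX5 5 (12.1%), between TBX3 and TBX4 7 (9.97%) and between TBX3 and TBX5 6 (7.41%). Between TBX4 and TBX5 no member passed edgeR's test, where 0.539% of all genes did, with 2 members at an unadjusted p under 0.05 and none called by DESeq2. The count for TBX2 and TBX5 was 3 without TBX2 replicate a, 3 without TBX2 replicate b and 2 without TBX5 replicate a.

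ATF3 gave the widest of these differences, in which TBX2 and TBX3 stood together and TBX4 and TBX5 stood together. It was higher with TBX2 than with TBX4 by 1.73 ± 0.15 (edgeR adjusted p = 4.62e-09) and than with TBX5 by 1.46 ± 0.17 (7.95e-07). TBX3 was higher than TBX4 by 1.70 ± 0.15 (1.50e-08) and than TBX5 by 1.43 ± 0.17 (4.65e-06). Within each pair the differences were 0.03 ± 0.13 between TBX2 and TBX3 (0.93) and -0.26 ± 0.20 between TBX4 and TBX5 (0.797). In the order TBX2, TBX3, EV, TBX5, TBX4 and Ctl by mean, 12.3, 12.1, 4.67, 4.44, 3.70 and 2.64 CPM, the TBX3 libraries began at 9.57 CPM and no library of the lower 4 groups was above 4.96 CPM.

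JUN followed ATF3 with one step more. It was higher with TBX3 than with TBX2 by 0.46 ± 0.10 (edgeR adjusted p = 0.00387), than with TBX5 by 0.93 ± 0.11 (5.89e-06) and than with TBX4 by 1.26 ± 0.11 (4.18e-09). TBX2 was above TBX4 by 0.80 ± 0.11 (1.66e-05) and above TBX5 by 0.47 ± 0.12 (0.0114). TBX4 and TBX5 differed by -0.33 ± 0.12 (0.44), although their libraries did not overlap. JUNB was higher with TBX3 than with TBX4 by 0.46 ± 0.10 (0.00387) and than with TBX5 by 0.68 ± 0.11 (0.000239). Its smaller differences between TBX2 and TBX3, -0.30 ± 0.10 (0.0513), and between TBX2 and TBX5, 0.38 ± 0.12 (0.0402), were lost without TBX3 replicate b (0.216) and without TBX5 replicate a (0.156), and DESeq2 put the first at 0.103.

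FOSB kept another order, TBX2, TBX4, TBX5 and TBX3, with means of 9.69, 8.61, 6.39 and 3.83 CPM. The adjusted p-values of FOSB, like those of the other members in these pairs, describe and do not test. It was higher with TBX2 than with TBX3 by 1.28 ± 0.18 (edgeR adjusted p = 1.05e-05) and than with TBX5 by 0.68 ± 0.18 (0.0147), the latter lost without TBX5 replicate a (0.209). TBX3 was below TBX4 by 1.10 ± 0.17 on the log2 scale, a fitted difference of -1.10 (0.000136). Below TBX5 its difference was -0.60 ± 0.20 (0.0887), lost without TBX5 replicate b (0.298) and with DESeq2 (0.122). The neighbours TBX2 and TBX4 (0.18 ± 0.15, 0.518) and TBX4 and TBX5 (0.50 ± 0.17, 0.379) did not pass. The highest pair, TBX2 and TBX4, is the one on the pORF backbone, which cannot be told apart from the TBX itself.

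JUND was the reverse of FOSB with respect to TBX3. It was higher with TBX3 than with TBX2, a TBX2 minus TBX3 difference of -0.40 ± 0.11 (edgeR adjusted p = 0.0136), than with TBX4 by 0.51 ± 0.10 (0.00259) and than with TBX5 by 0.69 ± 0.12 (0.000509). Among TBX2, TBX4 and TBX5 no difference passed. FOS, again as a description, differed between TBX3 and TBX4, by 0.78 ± 0.19 (0.011). Between TBX3 and TBX5 it differed by 0.58 ± 0.21 (0.12), with 0.0141 when TBX5 replicate b was left out. FOSL2 was higher with TBX3 than with TBX4 by 0.30 ± 0.09 (0.0541) and than with TBX5 by 0.38 ± 0.10 (0.0312), and higher with TBX2 than with TBX5 by 0.30 ± 0.11 (0.0771). Each FOSL2 call was lost without 1 library: TBX4 replicate a (0.202), TBX5 replicate a (0.123) and TBX2 replicate b (0.331). For FOSL1 the 6 differences ran from -0.06 to 0.03 with standard errors of 0.12, and no pair passed.

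**Figure D4:**
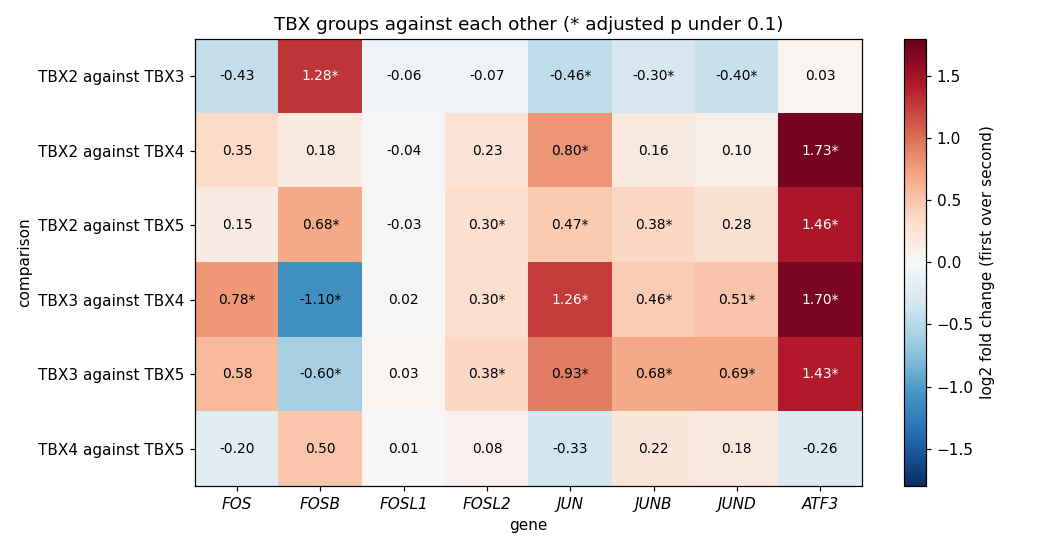
Log2 fold change between each pair of TBX groups (rows) for the 8 genes (columns), red where the first group is higher and blue where the second is, with an asterisk at an adjusted p under 0.1. ATF3 is dark red in the 4 rows that set TBX2 or TBX3 against TBX4 or TBX5, FOSL1 is near white throughout, and the TBX4 against TBX5 row has no asterisk.

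Over the 18 libraries, JUN and ATF3 had a Pearson r of 0.93 on the log2 CPM scale, FOS and JUNB 0.88, JUN and JUNB 0.84 and FOSB and JUND -0.78. These values are descriptions, since the libraries fall into 6 groups that share treatments and depth. The 3 genes outside the family most like ATF3 among 13717 were SESN2 (0.94), a stress-induced regulator of growth signalling, KPNA4 (0.94) and PRKAB2 (0.94). For FOS they were NXF1 (0.91), RAB30 (0.90) and ARRDC3 (0.90), for FOSB H3C9P (0.95), FAM200A (0.94) and ZNF211 (0.94), and for JUN AFF4 (0.92), HIVEP2 (0.92) and PRPF39 (0.90).

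Around the family, 25 of 30 listed bZIP partners and relatives were tested. This list and those below were written with earlier results of these data known. The genes named from them were picked by their changes in these same comparisons. Their adjusted p-values against the controls are therefore a description, not independent tests. With TBX2, 11 were higher and none lower, beside 17.0% and 15.6% of all tested genes. With TBX3, 11 were higher and 1 lower, beside 8.47% and 6.40%. The counts were 3 and 2 with TBX4 (6.97% and 6.07% of all) and 2 and 3 with TBX5 (6.55% and 6.12%). ATF5 was the lower one with TBX3, ATF1 and CEBPG were lower with both TBX4 and TBX5, ATF5 also with TBX5, and MAFG was higher with TBX4 beside DDIT3 and MAFF, all named after their values were seen. The medians of their log2 fold changes were 0.17, 0.21, -0.02 and 0.03, where the median of all tested genes was within 0.01 of 0. DDIT3, also called CHOP, a bZIP protein of the stress response that pairs with C/EBP proteins and ATF3, was at 9.53 ± 3.42 CPM in the controls (SD, n = 6), and in the TBX groups (SD, n = 3) at 38.2 ± 6.07 for TBX2, 29.3 ± 4.47 for TBX3, 14.7 ± 0.142 for TBX4 and 14.7 ± 2.28 for TBX5. Its log2 fold change was 2.01 ± 0.17 with TBX2 (edgeR adjusted p = 5.41e-09) and 0.62 ± 0.17 with TBX4 (0.0183), but EV already exceeded Ctl by 0.96 ± 0.12 (9.74e-05). MAFF, a small MAF protein, rose by 1.59 ± 0.16 with TBX2 (9.73e-08) and 1.12 ± 0.14 with TBX3 (7.17e-06), and JDP2, which pairs with JUN and represses AP-1 genes, by 1.01 ± 0.28 (0.00867) and 0.96 ± 0.30 (0.0406), with -0.04 ± 0.33 for TBX4 (0.966). By edgeR adjusted p, the JDP2 call with TBX3 was lost without TBX3 replicate b (0.277), and the MAFF call with TBX4 without TBX4 replicate a (0.129) or b (0.231). The number of partners called fell to 6 with TBX3 without TBX3 replicate b, to 2 with TBX4 without TBX4 replicate a or b, and with TBX5 to 3 without Ctl replicate b and 1 without TBX5 replicate b or c.

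Of the kinases and SRF-type factors upstream of FOS and JUN, 22 of 23 were tested. With TBX2, 1 was higher and 6 lower, beside 17.0% and 15.6% of all tested genes. With TBX3, 2 were higher (8.47% of all), and with TBX4 and TBX5 1 was lower each (6.07% and 6.12%). The medians were -0.09, -0.03, -0.11 and -0.01. RPS6KA1, a kinase downstream of ERK, was lower with TBX2, at -0.32 ± 0.11 (edgeR adjusted p = 0.0359), and with TBX5, at -0.33 ± 0.11 (0.0751). With TBX2, MAP2K7, the JNK kinase, was at -0.33 ± 0.12 (0.0419) and MAPK9, a JNK, at -0.25 ± 0.08 (0.0192). Named after their values were seen, MAPK8 was the higher one with TBX2 (0.20), SRF (0.22) was among those higher with TBX3, and ELK1 was lower with TBX4 (-0.22). By edgeR adjusted p, the TBX2 calls were lost for RPS6KA1 without TBX2 replicate c (0.191), MAP2K7 without replicate a (0.145) and MAPK9 without replicate b (0.116), and the TBX5 call of RPS6KA1 without Ctl replicate c, EV replicate a or c, or any TBX5 replicate (0.108 to 0.228). The count with TBX2 was 3 without TBX2 replicate b and 4 without replicate c. The count with TBX3 was 4 without Ctl replicate c and 1 without TBX3 replicate c. With TBX4 it was 5 without EV replicate c, 2 without Ctl replicate c and 0 without TBX4 replicate a or c, and with TBX5 2 without Ctl replicate a and 0 without Ctl replicate c or EV replicate a.

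Genes known as AP-1 targets moved in both directions. Of 30, 18 were tested, and the other 12, among them MMP3, MMP9, IL6, CXCL8 and PTGS2, did not reach the filter. With TBX2, 6 were higher and 8 lower, beside 17.0% and 15.6% of all tested genes. With TBX3, 3 were higher and 6 lower, beside 8.47% and 6.40%. The counts were 2 and 2 with TBX4 (6.97% and 6.07% of all) and 2 and 1 with TBX5 (6.55% and 6.12%). The medians were -0.08, -0.0027, 0.0046 and 0.08. HMOX1, a haem-degrading enzyme of the oxidative stress response, was called higher in all 4, by 1.17 ± 0.10 with TBX2 (edgeR adjusted p = 1.28e-08), 0.41 ± 0.11 with TBX3 (0.0221), 0.33 ± 0.11 with TBX4 (0.0583) and 0.44 ± 0.13 with TBX5 (0.0352). Of these HMOX1 calls, by edgeR adjusted p, that with TBX4 was lost without TBX4 replicate c (0.25 on the log2 scale, 0.262), TBX4 replicate b (0.106) or Ctl replicate a (0.108), that with TBX3 without TBX3 replicate b (0.106) and that with TBX5 without TBX5 replicate b (0.186). MMP13, a collagenase with a classical AP-1 site, rose with TBX2 by 1.08 ± 0.28 (0.00558), a call lost without TBX2 replicate b (edgeR adjusted p = 0.102). Named after their values were seen, VEGFA was higher with TBX3 (0.46) and TBX4 (0.28), HBEGF with TBX3 (0.46) and ITGA2 with TBX5 (0.40), while CD44 was lower with TBX4 (-0.17). None of the 8 targets lower with TBX2 or the 6 lower with TBX3 is named here, so the named genes do not reflect the balance of the list. The target count was 9 with TBX2 without TBX2 replicate b, 4 and 5 with TBX3 without TBX3 replicate b and c, and with TBX4 2 without Ctl replicate a, 1 without TBX4 replicate b and 2 without TBX4 replicate c.

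Other immediate-early genes were higher where they changed, with 1 exception. Of 20, 16 were tested. With TBX2, 4 were higher and 1, KLF2, lower, beside 17.0% and 15.6% of all tested genes. Higher with TBX3, TBX4 and TBX5 were 8, 4 and 5, beside 8.47%, 6.97% and 6.55% of all. The medians were 0.26, 0.48, 0.0011 and 0.29. KLF2, named after its values were seen, was at -0.59 ± 0.19 with TBX2 (edgeR adjusted p = 0.0261) and at 0.80 ± 0.17 with TBX5 (0.00406). KLF10, named likewise, was higher in all 4, and KLF4 with TBX2 and TBX3. EGR1, a zinc finger factor induced with FOS through SRF sites, rose by 3.45 ± 0.16 with TBX2 (edgeR adjusted p = 2.15e-13), 2.51 ± 0.17 with TBX3 (1.54e-10), 1.02 ± 0.17 with TBX4 (0.000295) and 1.35 ± 0.21 with TBX5 (0.000288), from 7.89 ± 3.24 CPM in the controls to 84.5 ± 18.3 CPM with TBX2. The orphan nuclear receptor NR4A3 rose in all 4, by 1.98 ± 0.38, 1.19 ± 0.40, 1.74 ± 0.33 and 2.12 ± 0.38 (adjusted p of 0.000507, 0.0559, 0.00123 and 0.00107), from 0.498 CPM. NR4A2 rose with TBX3, TBX4 and TBX5, by 1.21 ± 0.25 (0.00276), 1.02 ± 0.26 (0.0121) and 1.01 ± 0.28 (0.0284), and was at 0.59 ± 0.29 with TBX2 (0.139). By edgeR adjusted p, the NR4A3 call with TBX3 was lost without TBX3 replicate a (0.226) or b (0.122), and the NR4A2 call with TBX5 without TBX5 replicate a (0.122). Without TBX5 replicate a, 8 of these genes were called with TBX5.

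Stress genes were called more often with TBX2 and TBX3. When groups were set directly against each other, most differed from TBX4 and TBX5, and most also differed between TBX2 and TBX3. Of 15, all tested, 11 were higher and 1 lower with TBX2, beside 17.0% and 15.6% of all tested genes. With TBX3, 14 were higher (8.47% of all), against 5 and 4 with TBX4 and TBX5 (6.97% and 6.55%). The medians were 1.00, 0.84, 0.16 and 0.04. As this list was written with earlier results of these data known, its counts in the direct comparisons are a description too. In these, 12 of 15 were higher with TBX3 than with TBX4, where 9.97% of all genes differed, and 12 higher than with TBX5 (7.41%). With TBX2, 11 were higher and 2 lower than with TBX4 (12.3%) and 10 higher than with TBX5 (12.1%). Against TBX3, 6 were higher and 5 lower with TBX2 (15.5%). SESN2 rose by 1.77 ± 0.13 with TBX2 (edgeR adjusted p = 9.87e-10), 1.56 ± 0.14 with TBX3 (5.30e-08), 0.51 ± 0.14 with TBX4 (0.0175) and 0.53 ± 0.16 with TBX5 (0.0482), with EV above Ctl by 0.61 ± 0.13 (0.0648). The SESN2 call with TBX5 was lost without TBX5 replicate b or c (edgeR adjusted p = 0.132 and 0.153). HSPA1A, a heat shock chaperone with a near-identical copy, HSPA1B, was 172.7 ± 34.7 CPM with TBX3 against 23.5 ± 2.42 in the controls, a log2 fold change of 2.88 ± 0.09 (1.20e-17), and with TBX2 it was at -0.08 ± 0.10 (0.623). Reads of both copies cannot be separated with certainty. Named after their values were seen, DNAJB1 was the stress gene lower with TBX2 (-0.14), HSPA1A, HSPA1B and HMOX1 were higher with TBX4 beside DDIT3 and SESN2, and HSPA5 and HMOX1 with TBX5. In EV against Ctl, the stress genes DDIT3, TRIB3 (0.71), ASNS (0.33) and SESN2 and the targets MMP1 (2.21) and PLAUR (0.26) were among those higher in EV. Only 3 stress genes were called with TBX4 without TBX4 replicate b, and 1 with TBX5 without TBX5 replicate b or c. DDIT3 and HMOX1 stand on more than one of these lists. Whether the stress genes have a part in the levels of ATF3 and JUN was not tested.

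**Figure D5:**
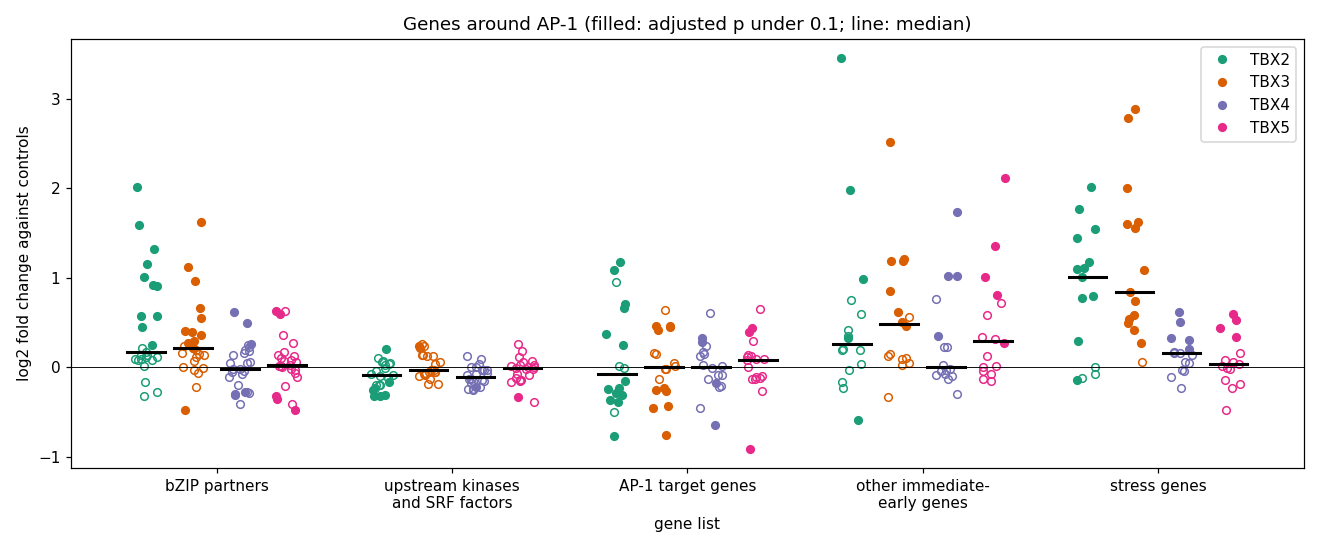
Log2 fold change against the 6 controls (y axis) of each tested gene of 5 lists (x axis), coloured by TBX, filled at an adjusted p under 0.1, with a line at each median. The stress genes have medians of 1.00 with TBX2 and 0.84 with TBX3 and of 0.16 and 0.04 with TBX4 and TBX5, while upstream kinases stay close to 0 in all 4.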

How the data were processed

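Total RNA of 18 samples, labelled in 6 groups of 3, was extracted with Trizol and sequenced as read pairs. The authors aligned the pairs to GRCh37 with STAR 2.3.0, used featureCounts with its defaults, and deposited the raw gene counts. Symbols were found for 87.4% of the 63677 Ensembl genes, and exon lengths came from a GENCODE annotation lifted to GRCh37. Groups and letters came from the sample titles. The members and lists were chosen with earlier results of these data known. The 3 genes named from each list had the largest absolute mean change over the 4 TBX comparisons among those called at least once (1 such gene is not reported here), and genes most like a member were ranked among genes with a mean of at least 1 CPM.

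The 15576 genes above 5 counts in 10 or more libraries were tested with edgeR 4.0.16 in R 4.3.3, by TMM scaling, the quasi-likelihood test and Benjamini-Hochberg adjustment over all of them, at 0.1. Each TBX was compared with the 6 controls in a separate fit, EV with Ctl likewise, and the TBX groups in 1 fit. A standard error is the size of the fitted log2 change divided by the root of its F statistic. The scripts were tested on simulated data. Alternatives were DESeq2 1.42.0, its size factors, library totals, TMM without the most counted gene, other filters and fits, either control alone, the replicate letter as a block, an FDR of 0.05 and leaving out each library. Sequences are from RefSeq on GRCh38.p14.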

Additional observations from a re-analysis of the deposited data

Results flagged for a closer look

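FOSL2 in the 6 controls had 1 library far from the others: EV replicate a, at 23.5 CPM, was the lowest, while the other 5 lay from 26.5 to 28.2 CPM. Chance alone marks about 1 in 20 groups in this way, and 8 groups, 1 for each gene, were examined.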

How the results depend on the processing

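Of the members' fold changes under all alternatives, 1291 kept their side of the threshold and their direction, 93 lost a call, 28 gained one, 53 changed sign with no call either way and 2 called values reversed. Scaling by library totals, which moved the median of all genes by 0.25 with TBX4, -0.31 with TBX5, 0.20 between EV and Ctl and 0.57 between TBX4 and TBX5, put FOSL1 with TBX4 at 0.0137 (edgeR adjusted p = 0.95) and, where the median moved by -0.34, FOSL2 between TBX3 and TBX4 at -0.0368 (0.931). It called 833 genes higher and 220 lower with TBX2 in place of 2651 and 2428, 35 and 0 with TBX3 in place of 1319 and 997, 2775 and 33 with TBX4 in place of 1086 and 945, and 37 and 54 with TBX5 in place of 1021 and 954. Under it, members called were 3 with TBX4, 2 with TBX5, 0 for EV against Ctl, 1 for TBX2 against TBX3, 1 for TBX2 against TBX4, 2 for TBX2 against TBX5, 2 for TBX3 against TBX4, 2 for TBX3 against TBX5 and 5 for TBX4 against TBX5. Partners called became 2 with TBX3 and 0 with TBX5, upstream genes 0 with TBX2, TBX3 and TBX5, and targets 5, 0, 7 and 1 with TBX2, TBX3, TBX4 and TBX5. DESeq2 called 0 members for EV against Ctl, 2 and 3 partners with TBX4 and TBX5, 4, 0 and 0 upstream genes with TBX2, TBX4 and TBX5 and 1 target with TBX4, and gave FOSB no adjusted p with TBX3. With EV alone as control, partners were 2 with TBX4 and TBX5, upstream genes 4 with TBX2 and 0 with TBX5, and targets 2 with TBX4. With Ctl alone, partners were 7 with TBX3 and 3 with TBX5, and upstream genes 4, 2 and 0 with TBX2, TBX4 and TBX5. At an FDR of 0.05, EV against Ctl had 0 members, TBX5 3 partners, TBX3, TBX4 and TBX5 1, 0 and 0 upstream genes and TBX4 1 target. In 1 fit of all libraries, upstream genes were 2 with TBX4 and 2 with TBX5, and 0 members differed between EV and Ctl. Without a filter, upstream genes were 0 with TBX4 and 3 with TBX5, and with at least 10 counts everywhere 2 with TBX5, where 2 members were called and FOSB was not tested. In these comparisons the cause of a changed count was not tested.

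Libraries of the same letter had deviations that correlated by 0.00043 on average over 45 pairs (-0.101 to 0.16). This mean over many genes showed no general pairing by letter, but it cannot exclude a shared batch that moved single genes. FOS was highest in library b in Ctl, EV, TBX2, TBX3 and TBX5, and in library a in TBX4. A fit that blocked on the letter called 0 members for EV against Ctl, and 7, 7, 5 and 4 with TBX2, TBX3, TBX4 and TBX5. It added a call of FOSL1 with TBX3 (-0.24, edgeR adjusted p = 0.0903). FOS, again as a description, was then called between TBX2 and TBX3 (-0.47, 0.0931) and between TBX3 and TBX5 (0.58, 0.0807).

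With each library left out, partners called ran from 6 to 12 with TBX3, 2 to 6 with TBX4 and 1 to 5 with TBX5. Upstream genes ran from 3 to 7, 1 to 4, 0 to 5 and 0 to 2 with TBX2, TBX3, TBX4 and TBX5, and targets from 9 to 14, 4 to 10 and 1 to 6 with TBX2, TBX3 and TBX4. Members ran from 0 to 2 for EV against Ctl and from 2 to 5 for TBX2 against TBX5. With the small counts of FOS and FOSB in the controls, 4 to 44, counting error limits how finely their fold changes can be ranked.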
